A study of Mus musculus with 7 samples.

Results

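The Kupffer cell, macrophage and leukocyte markers were followed in mouse livers that lacked or had regained HDAC3, a class I histone deacetylase of the NCoR and SMRT corepressor complexes. The list held 37 genes named by symbol, and a gene was read from its brightest probe set with exactly 1 annotated symbol. Of these, 36 were measured, among 19933 genes in all, and Spp1 was not analysed here. HDAC3 knockout mice (3 arrays) received an adeno-associated virus (AAV) carrying Cre recombinase. Rescued mice (4 arrays, titled WT in the labels) received the same AAV-Cre together with AAV-HDAC3 WT, a virus for Flag-tagged wild-type HDAC3. All were C57BL/6 males aged 4 months, fed freely on normal chow, and 2 weeks had passed since the virus when their livers were collected at 5 pm (ZT10, with lights on at ZT0). Both groups carried Cre virus and the rescued group an additional vector, the labels name neither the promoter that drives Cre nor the targeted allele, and no uninjected liver was analysed here. The question for these genes is whether the liver's resident and recruited immune cells left a different RNA trace when HDAC3 was missing.

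Kupffer cells are the macrophages that line the liver sinusoids and clear particles, complement-coated debris, old red cells and oxidised lipoproteins from blood. They depend on the colony stimulating factor receptor Csf1r and carry receptors such as Clec4f, Vsig4, Timd4 and Marco. Injured or fat-laden livers also recruit blood monocytes through the chemokine receptor Ccr2, and some of these become lipid-associated macrophages with Trem2, Gpnmb and Spp1. Neutrophils store antimicrobial proteins such as Camp, Ngp, Elane, Mpo and Ltf in granules, whose transcripts are made mainly in marrow precursors.

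Values are log2 intensities as deposited, and the linear median intensity per array was 105.0 to 111 among knockout arrays, against 96.3 to 102 among rescued arrays. Differences are knockout minus rescued. A gene was called when limma's moderated test gave a Benjamini-Hochberg adjusted p under 0.05 over all 19933 genes. The knockout arrays sat above the rescued arrays mainly among dim genes, with median differences of 0.13 and 0.15 in the lower 2 of 4 equal bins of level and 0.02 and -0.02 in the upper 2. The median over all genes was 0.09, or 0.00 after cyclic loess, a scaling that removes differences which depend on level. Results for the markers are therefore given in both scalings and beside the 500 genes nearest in level. The Hdac3 transcript itself was lower in knockout livers (8.92 ± 0.16, SD, n = 3, against 9.40 ± 0.13, SD, n = 4; adjusted p = 0.0124), a call lost without knockout replicate 1. After cyclic loess the Hdac3 call (adjusted p = 0.0201) was kept only without knockout replicate 3 or either of rescued replicates 1 and 4. In bulk liver, fewer cells of a type and less RNA per cell cannot be told apart.

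The marker list as a whole did not stand apart from the array. As deposited, 6 of 36 members were called, 5 higher and 1 lower in knockout livers, where 14.4% of all genes were called, 9.54% higher and 4.85% lower. After cyclic loess 2 were called, Trem2 higher and Mrc1 lower, against 9.74% of all genes, 4.38% higher and 5.36% lower. Quantile normalization called the same 2 members, against 9.83% of all genes, 4.51% higher and 5.32% lower. Median centring called Mmp12 higher and Mrc1 lower, against 12.4% of all genes, 3.37% higher and 9.04% lower. Called with 1 sign as deposited and after cyclic loess were 2 members, against 8.20% of all genes, 4.00% higher and 4.20% lower. In all 4 scalings (as deposited, quantile, median, cyclic loess) 1 member kept its call, Mrc1, against 6.67% of all genes, 2.61% higher and 4.06% lower. The groups' arrays did not overlap for 8 members, 7 higher and 1 lower, against 29.6% of all genes, 21.0% higher and 8.56% lower. After cyclic loess they did not overlap for 6 members, 4 higher and 2 lower (Mrc1 and Cd4), against 24.6% of all genes, 11.5% higher and 13.1% lower. The median difference of the 36 members was 0.17 as deposited and 0.06 after cyclic loess, beside 0.09 and 0.00 over all genes. Against the median of their neighbours in level, 22 of 36 members lay higher and the other 14 did not.

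**Figure D1:**
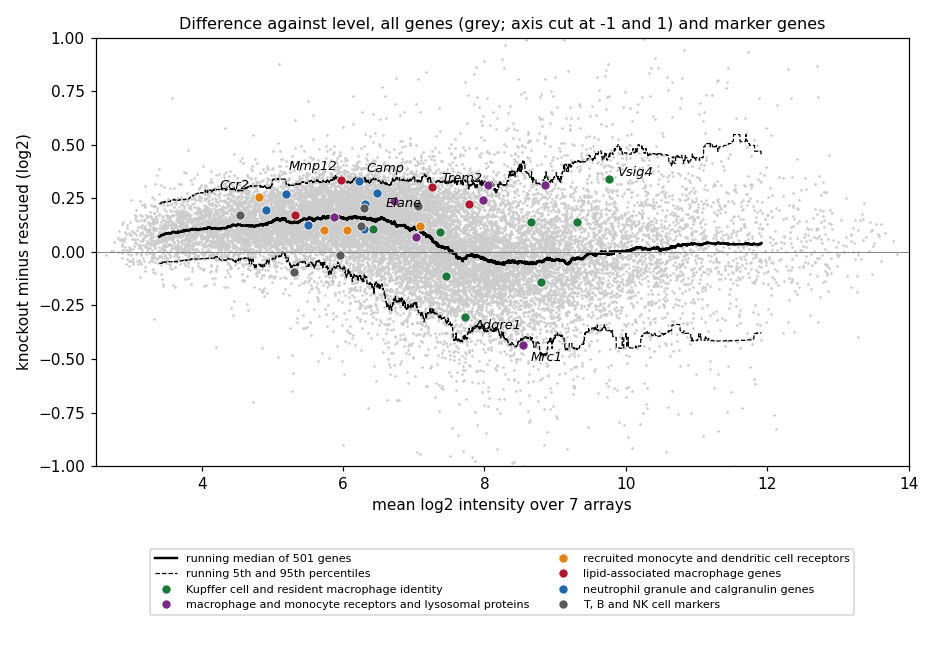
Knockout minus rescued log2 difference (vertical, cut at -1 and 1) against mean log2 intensity (horizontal) for all genes (grey) and the 36 markers, coloured by role; lines are the running median and the 5th and 95th percentiles of genes of like level. Of the markers, 1 lies above the 95th percentile of its neighbours and 2 below the 5th; the running median is above 0 among dim genes, and Mrc1 lies lowest of the markers at -0.44.

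The levels fitted the cell types named by the list for macrophages and less so for other leukocytes. Olfactory and vomeronasal receptor genes, 1194 on this array, served as a guide to signal from genes not expected in liver, and their 95th percentile was 6.21. Probe sets differ in brightness for equal RNA, so this is only a guide. All 8 Kupffer identity genes lay above it, as did 6 of 7 macrophage receptor and lysosomal genes. Only 1 of 4 monocyte and dendritic cell receptors, 2 of 4 lipid-associated genes, 4 of 7 neutrophil genes and 3 of 6 lymphocyte genes did. The 12 members not above it were Cd14, Itgam, Itgax, Ccr2, Mmp12, Gpnmb, S100a8, Ngp, Ltf, Cd4, Cd79a and Ms4a1. For these, log2 differences are given without a linear fold, and they describe signal within the range of the receptor genes.

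**Figure D2:**
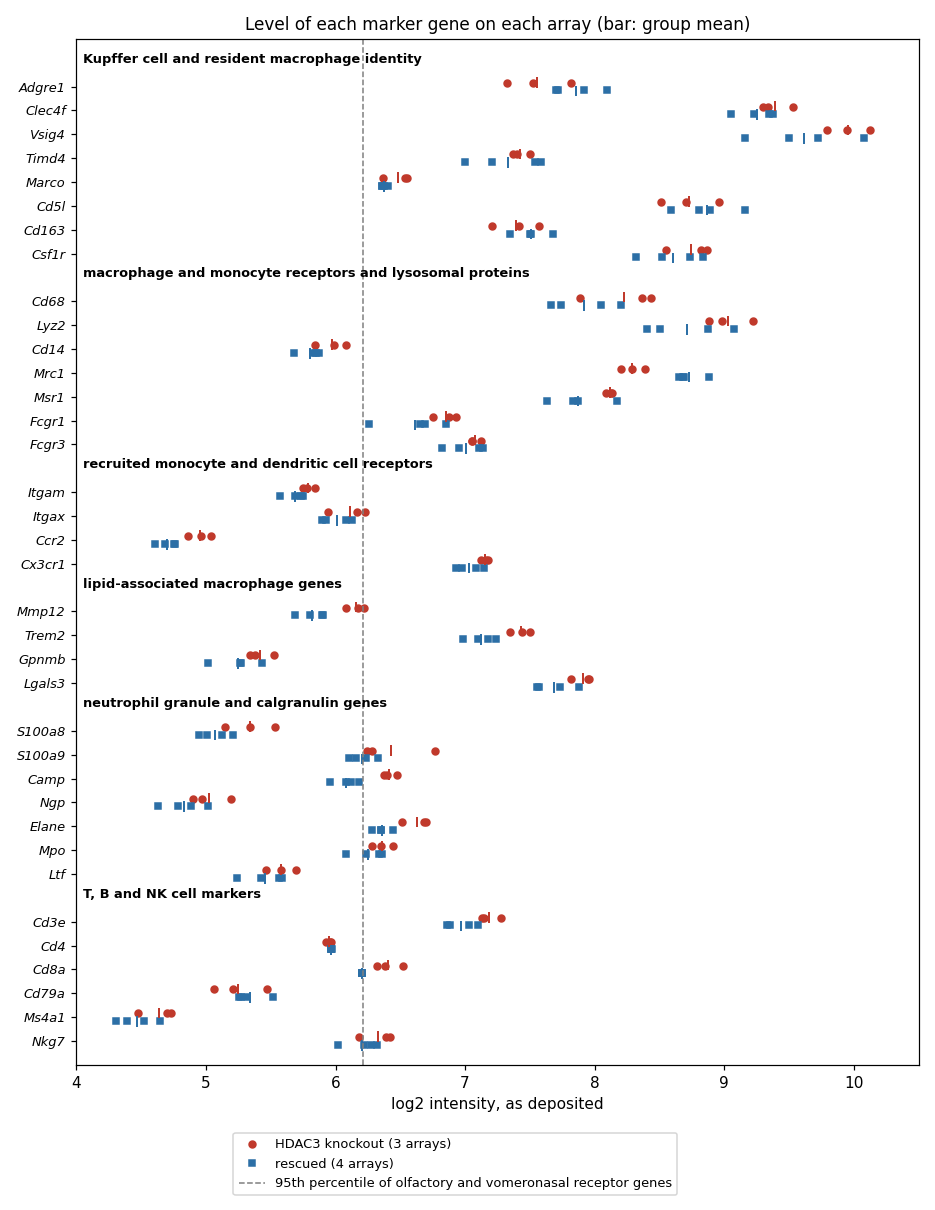
Log2 intensity (horizontal) of each of the 36 measured markers on the 3 knockout arrays (circles, upper) and the 4 rescued arrays (squares, lower), with a bar at each group mean and a dashed line at 6.21, the 95th percentile of receptor genes. The groups do not overlap for Mrc1, Trem2, Mmp12, Ccr2, Camp, Elane, Cd3e and Cd8a.

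Mrc1 and Trem2 were the members called both as deposited and after cyclic loess, and they differed in opposite directions. Their promoter windows, 250 bases before to 50 after the annotated start, are shown to set them beside each other, from RefSeq on build GRCm38.p6, 5′ to 3′ on the gene's own strand. Capitals mark GAGGAAG or its reverse complement CTTCCTC, the core of the purine-rich motif of the myeloid factor PU.1.
Mrc1, chr2:14229164-14229463, plus strand: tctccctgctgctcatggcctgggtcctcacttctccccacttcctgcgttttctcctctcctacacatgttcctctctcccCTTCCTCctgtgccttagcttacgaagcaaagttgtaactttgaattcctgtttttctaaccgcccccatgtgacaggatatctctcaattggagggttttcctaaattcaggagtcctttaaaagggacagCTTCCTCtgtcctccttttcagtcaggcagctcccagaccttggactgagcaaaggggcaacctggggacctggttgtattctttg
Trem2, chr17:48346151-48346450, plus strand: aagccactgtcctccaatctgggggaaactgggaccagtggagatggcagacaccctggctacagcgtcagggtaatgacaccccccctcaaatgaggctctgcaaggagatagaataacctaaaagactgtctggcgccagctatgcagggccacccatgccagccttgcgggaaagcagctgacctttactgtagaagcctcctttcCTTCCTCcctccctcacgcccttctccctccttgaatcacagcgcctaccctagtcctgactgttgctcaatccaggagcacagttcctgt
The Mrc1 window held 2 matches and the Trem2 window 1. Of 32 windows found for 30 of the measured members, 12 held the 7 letters on either strand (37.5%), against 13.6% of all 32851 windows. Fcgr3 had overlapping windows that each held a match, so its sequence entered the count by window more than once. Counted by gene, a match was found for 11 of the 30 members and for 4152 of all 27025 genes. The members with a match were Cd5l, Elane, Fcgr1, Fcgr3, Itgam, Marco, Mmp12, Mpo, Mrc1, S100a8 and Trem2. A match describes the letters only, and genes with a match differed in both directions between the groups.

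Mrc1 encodes the mannose receptor, which takes up glycoproteins and is carried in mouse liver by sinusoidal endothelial cells as well as macrophages. It read 8.29, 8.20 and 8.39 in knockout livers, against 8.65, 8.88, 8.69 and 8.69 in rescued livers. Every knockout value lay below every rescued value. The difference was -0.44 (SE 0.08; 1.35-fold lower, adjusted p = 0.00825 in limma's test) as deposited and -0.40 (adjusted p = 0.0175) after cyclic loess. As deposited the call was kept with each array left out in turn, with differences from -0.48 to -0.38. After cyclic loess it was lost without knockout replicate 1 (adjusted p = 0.0714) or replicate 2 (adjusted p = 0.0626). Genes of like level had a median difference of -0.05, with 90% of them between -0.40 and 0.43 (5th and 95th percentiles).

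The 16 measured markers of sinusoidal endothelial cells all lay above the receptor percentile. Of all genes above it, 9.91% were called higher and 7.22% lower as deposited, and 6.40% and 7.55% after cyclic loess. Of the markers, 3 were called lower and none higher as deposited, and 1 lower after cyclic loess. They were the nuclease gene Dnase1l3 (-0.31, adjusted p = 0.0331), the lectin gene Clec4g (-0.29, adjusted p = 0.0477) and the inhibitory Fc receptor gene Fcgr2b (-0.21, adjusted p = 0.0459), the last 2 named after their values were seen. With an array left out, Dnase1l3 kept its call only without rescued replicate 1, Clec4g only without knockout replicate 2, and Fcgr2b in none of the 7 fits. After cyclic loess Dnase1l3 remained called (-0.29, adjusted p = 0.0264), while Clec4g (-0.32, adjusted p = 0.0575) and Fcgr2b (-0.19, adjusted p = 0.0569) were not. The median of the list was -0.01, and the hyaluronan receptor genes Stab2 and Lyve1, also named after their values were seen, differed by -0.05 and 0.15 (adjusted p = 0.585 and 0.457). The summed intensity of the list was 8748 to 9665 in knockout and 9577 to 10028 in rescued livers. Its part in the Mrc1 result was not tested.

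Of the 8 Kupffer cell and resident macrophage identity genes, none was called in any of the 4 scalings. Their differences ran from -0.30 to 0.34, 5 of them above 0, with a median of 0.10 as deposited and 0.02 after cyclic loess. Clec4f, the galactose-binding lectin found on Kupffer cells, read 9.53, 9.30 and 9.34 in knockout livers, against 9.23, 9.38, 9.05 and 9.34 in rescued livers. The groups overlapped, and the 95% interval of the difference was -0.07 to 0.34. Vsig4, the complement receptor CRIg, read 10.13, 9.95 and 9.79 in knockout livers, against 9.50, 10.08, 9.16 and 9.72 in rescued livers. The difference of 0.34 had an interval of -0.04 to 0.72, and the rescued livers alone ran from 9.16 to 10.08. Adgre1, which encodes the F4/80 antigen, read 7.32, 7.52 and 7.82 in knockout livers, against 7.71, 8.09, 7.71 and 7.92 in rescued livers. It differed by -0.30 (interval -0.58 to -0.03, adjusted p = 0.112), and by -0.44 to -0.19 with an array left out.

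Timd4, the phosphatidylserine receptor of long-lived resident macrophages, differed by 0.09 (interval -0.19 to 0.37). The scavenger receptor gene Marco differed by 0.11 (-0.04 to 0.26), and by -0.03 after cyclic loess. Cd5l, a secreted macrophage protein that blocks apoptosis, differed by -0.14 (-0.43 to 0.16). Cd163, the haemoglobin-haptoglobin receptor, differed by -0.11 (-0.33 to 0.11), and the growth factor receptor Csf1r by 0.14 (-0.13 to 0.41). All 5 intervals included 0, and the smallest adjusted p of these 5 genes was 0.273, for Marco.

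Among the 7 macrophage receptor and lysosomal genes, Mrc1 was the single call. The other 6 differed by 0.07 to 0.31. The lysosomal glycoprotein gene Cd68 read 8.43, 8.36 and 7.88 in knockout livers, against 7.74, 8.21, 7.67 and 8.05 in rescued livers. Knockout replicate 3 lay among the rescued values, and the difference of 0.31 had adjusted p = 0.165. The lysozyme gene Lyz2 read 9.22, 8.98 and 8.88 in knockout livers, against 8.51, 9.08, 8.40 and 8.87 in rescued livers. The groups overlapped here too (0.31, adjusted p = 0.159). Msr1, the class A scavenger receptor, differed by 0.24 (interval 0.01 to 0.48, adjusted p = 0.132). Its knockout values of 8.08, 8.13 and 8.14 lay within the rescued range of 7.63 to 8.17. The Fc receptor genes Fcgr1 and Fcgr3 differed by 0.24 and 0.07, and the lipopolysaccharide coreceptor gene Cd14 by 0.16, without a call. After cyclic loess Cd14 differed by 0.01 and Fcgr3 by -0.00.

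**Figure D3:**
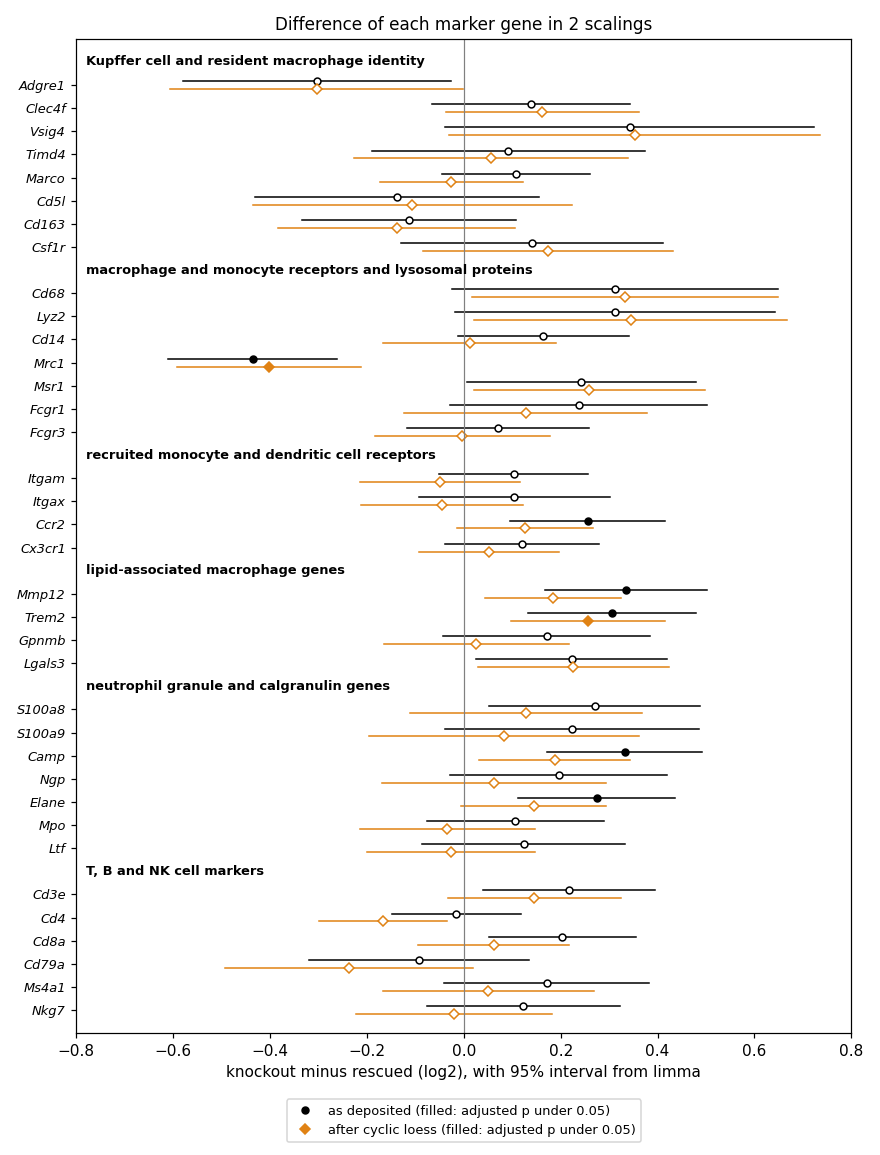
Knockout minus rescued log2 difference (horizontal) with limma's 95% interval for each of the 36 markers, as deposited (circles) and after cyclic loess (diamonds); filled symbols have an adjusted p under 0.05. Mrc1 (-0.44 and -0.40) and Trem2 (0.31 and 0.26) are filled in both scalings, and Ccr2, Mmp12, Camp and Elane as deposited only.

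The 15 genes of these macrophage groups varied widely among the rescued livers. Their median SD among rescued livers was 0.22, against a median of 0.09 for genes of like level, and 13 of the 15 exceeded their own neighbours' median. After cyclic loess 14 of 15 did. In knockout livers the median SD was 0.12 beside 0.11 for neighbours, and 9 of 15 exceeded their own neighbours' median. There the 2 groups differed. The identity genes had a median SD of 0.17 beside 0.11, with 6 of 8 above their neighbours' median. The receptor and lysosomal genes had 0.09 beside 0.11, with 3 of 7 above it. Rescued replicate 2 was the highest rescued array for 12 of the 15 genes, and rescued replicate 3 the lowest for 10. The summed intensity of the 8 identity genes was 3241, 3121 and 3086 in knockout livers, against 2762, 3522, 2413 and 3075 in rescued livers. All knockout sums fell inside the rescued range, and they did so after cyclic loess as well (3085 to 3226 in knockout, 2381 to 3525 in rescued livers). Without rescued replicate 2, Vsig4, Lyz2 and Msr1 were called higher after cyclic loess, and Msr1 also as deposited, which they were not with all arrays. Without knockout replicate 3, Adgre1 was called lower as deposited (-0.44, adjusted p = 0.0476) and after cyclic loess (-0.46, adjusted p = 0.0460).

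Among the knockout livers the macrophage genes ran in more than 1 order. The identity genes Adgre1, Cd5l and Cd163 were lowest in replicate 1 and highest in replicate 3. The identity gene Vsig4 and the lysosomal genes Cd68 and Lyz2 were highest in replicate 1 and lowest in replicate 3. Each of these 6 genes kept that order after cyclic loess. As deposited, replicate 1 was the highest knockout array for 50.02% and replicate 3 the lowest for 50.1% of all genes above the receptor percentile. In the rescued livers all 6 of these genes had their highest value in replicate 2. This order was noticed in the values and was not tested.

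**Figure D4:**
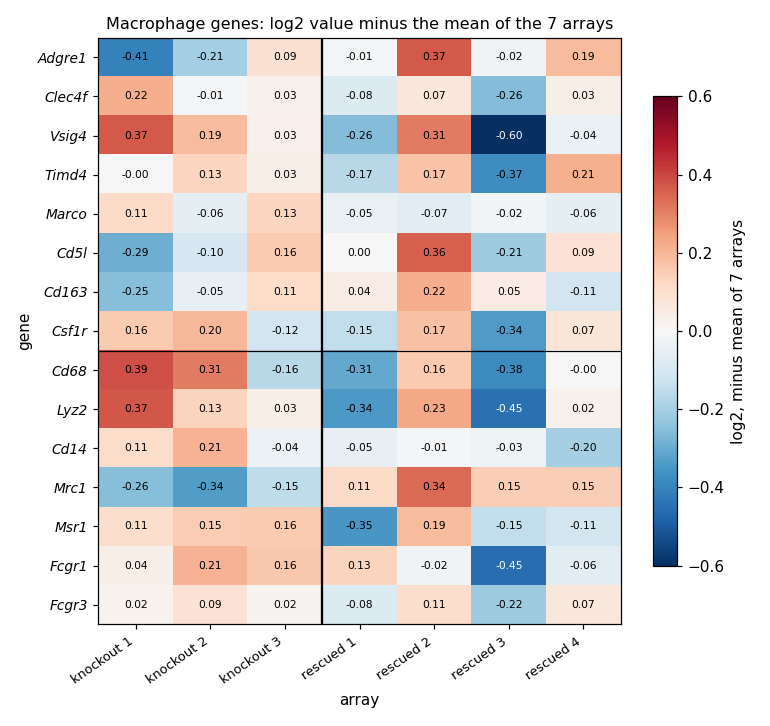
Log2 value minus the mean of the 7 arrays for the 8 identity genes (upper) and 7 receptor and lysosomal genes (lower), with knockout arrays on the left and rescued arrays on the right; red is above and blue below the mean. Rescued replicate 2 is mostly red and rescued replicate 3 mostly blue, while Mrc1 is blue on all 3 knockout arrays.

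Lipid-associated macrophage genes gave the highest median difference of the role groups, 0.26 as deposited and 0.20 after cyclic loess, and all 4 measured members lay above 0 in both. Of the 4, Mmp12 and Gpnmb were not above the receptor percentile. As deposited 2 of 4 were called higher, and 1 after cyclic loess, against 9.54% and 4.38% of all genes. Trem2, a lipid-sensing receptor of macrophages, read 7.50, 7.35 and 7.44 in knockout livers, against 7.24, 7.18, 6.98 and 7.10 in rescued livers. Every knockout value lay above every rescued value, by 0.31 on average (SE 0.08; 1.24-fold, adjusted p = 0.0307). After cyclic loess the difference was 0.26 (adjusted p = 0.0487) and after median centring 0.22 (adjusted p = 0.0680). Over the 7 fits that left out an array, the difference as deposited ran from 0.26 to 0.35, and the call held in 2 of them, those that dropped knockout replicate 2 or rescued replicate 1. After cyclic loess it was kept only without rescued replicate 1. Genes of like level had a median of 0.06 and a 95th percentile of 0.32.

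Mmp12, the macrophage elastase, read 6.22, 6.17 and 6.08 in knockout livers, against 5.91, 5.80, 5.69 and 5.89 in rescued livers. The groups did not overlap, but the level lay within that of the receptor genes and its neighbours had a median of 0.16. Its difference of 0.33 (adjusted p = 0.0203) became 0.18 after cyclic loess (adjusted p = 0.0962). As deposited, the call held in 3 of the 7 fits that left out an array, those without knockout replicate 3 or either of rescued replicates 1 and 4. Lgals3, the galactoside-binding galectin-3, read 7.95, 7.95 and 7.82 in knockout livers, against 7.88, 7.74, 7.57 and 7.56 in rescued livers. It differed by 0.22 as deposited (adjusted p = 0.105) and 0.23 after cyclic loess (adjusted p = 0.137), with 1 rescued array inside the knockout range. Gpnmb, a lysosomal glycoprotein, differed by 0.17 and, after cyclic loess, by 0.03. The summed intensity of these 4 genes was 509 to 549 in knockout and 406 to 490 in rescued livers, and 514 to 521 against 416 to 493 after cyclic loess.

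A wider list of 16 measured genes of lipid-associated macrophages, several of them also expressed by hepatocytes, held 5 higher and none lower in every scaling. Over all genes, 2.61% were higher and 4.06% lower in all 4 scalings. The list was chosen with earlier results of these data known, so the count is a description only. The lysosomal proton pump gene Atp6v0d2 rose by 1.61 (adjusted p = 0.00181) and the lipid droplet coat gene Plin2 by 0.93 (adjusted p = 0.00239). The lysosomal acid lipase gene Lipa rose 1.54-fold (adjusted p = 0.00622), and the last 2, named after their values were seen, differed by 0.57 for the lysosomal growth factor gene Grn (adjusted p = 0.00118) and 0.52 for the cathepsin gene Ctsl (adjusted p = 0.00192). Each of Lipa, Grn and Ctsl kept its call with any array left out. The part of hepatocyte RNA in this list was not tested.

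The monocyte and dendritic cell receptors gave 1 call, higher, as deposited and none after cyclic loess, against 9.54% and 4.38% of all genes called higher. Ccr2, the receptor by which monocytes leave the marrow, read 5.04, 4.96 and 4.86 in knockout livers, against 4.76, 4.75, 4.68 and 4.60 in rescued livers. The values did not overlap, yet the mean level lay at percentile 65.7 of the receptor genes. The difference of 0.26 (adjusted p = 0.0412) was 0.13 after cyclic loess (adjusted p = 0.238), and neighbours in level had a median of 0.12. The call as deposited was kept only without knockout replicate 3 or rescued replicate 1. The integrin genes Itgam and Itgax differed by 0.10 each as deposited and by -0.05 each after cyclic loess. Cx3cr1, the fractalkine receptor, differed by 0.12 and 0.05.

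On the ligand side, 20 macrophage growth factors and chemokines were measured. As deposited 5 were called higher and 1 lower, against 9.54% and 4.85% of all genes. After cyclic loess 2 were higher and 1 lower, against 4.38% and 5.36%. Ccl2, the main ligand of Ccr2, read 7.10, 7.19 and 6.87 in knockout livers, against 6.73, 6.67, 6.58 and 6.38 in rescued livers. It rose by 0.46 (adjusted p = 0.0168). Cyclic loess left a difference of 0.36 (adjusted p = 0.0379). Ccl2 was not called as deposited without knockout replicate 1 or 2. After cyclic loess its call was kept only without knockout replicate 3 or rescued replicate 1. The chemokine gene Ccl9 rose by 0.26 (adjusted p = 0.0279). As deposited it kept its call only without knockout replicate 3 or rescued replicate 1. After cyclic loess Ccl9 differed by 0.27 (adjusted p = 0.0137), and that call held in all 7 fits that left out an array. Cxcl12, the ligand of Cxcr4 that retains leukocytes in tissue, fell by 0.35 on the log2 scale (adjusted p = 0.0301). Its call as deposited was kept only without rescued replicate 1. After cyclic loess (-0.34, adjusted p = 0.0220) it was kept only without knockout replicate 2 or either of rescued replicates 1 and 4. The Csf1r ligand genes Csf1 and Il34, named after their values were seen, differed by 0.16 and 0.18 (adjusted p = 0.201 and 0.118). Hepatocytes and stromal cells also make chemokines, and the source of these transcripts was not tested.

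Of the 7 neutrophil genes, 2 were called higher as deposited and none after cyclic loess, against 9.54% and 4.38% of all genes. Camp, the cathelicidin precursor, read 6.39, 6.38 and 6.47 in knockout livers, against 6.18, 5.96, 6.08 and 6.12 in rescued livers. It differed by 0.33 as deposited (adjusted p = 0.0180) and 0.19 after cyclic loess (adjusted p = 0.121), beside a median of 0.16 among neighbours. Leaving out knockout replicate 1 or either of rescued replicates 2 and 3 ended the call. Elane, the neutrophil elastase, read 6.68, 6.52 and 6.70 in knockout livers, against 6.35, 6.45, 6.28 and 6.35 in rescued livers. Its difference was 0.27 (adjusted p = 0.0349). Under cyclic loess that was 0.14 (adjusted p = 0.209), with a median of 0.15 among neighbours. It kept its call only without knockout replicate 2 or rescued replicate 1.

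The calgranulin genes S100a8 and S100a9, whose products form calprotectin, were widely spread among knockout livers. S100a9 read 6.24, 6.28 and 6.77 in knockout livers, against 6.33, 6.16, 6.24 and 6.11 in rescued livers. Only knockout replicate 3 lay above the rescued range (0.22, adjusted p = 0.195). S100a8 differed by 0.27 (adjusted p = 0.0830), the myeloperoxidase gene Mpo by 0.11, the lactoferrin gene Ltf by 0.12 and the granule protein gene Ngp by 0.20. After cyclic loess Mpo and Ltf differed by -0.03 each. Knockout replicate 3 was the highest knockout array for 6 of the 7 neutrophil genes. The wider list of 16 measured neutrophil and monocyte genes had summed intensities of 6986, 8503 and 11938 in knockout livers, against 6990, 8288, 7294 and 7216 in rescued livers. Most of that sum came from Hp and Lcn2, acute phase genes that hepatocytes express, which made up 6022, 7521 and 10903 of it in knockout livers and 6096, 7347, 6446 and 6316 in rescued livers. The other 14 genes summed to 964, 982 and 1035 in knockout livers, against 894, 940, 848 and 900 in rescued livers. These sums are as deposited, and 8 of the 16 genes were not above the receptor percentile. All 7003 genes not above it also summed higher in knockout livers, to 287644 to 305588 against 257094 to 276916. The list held 2 genes called higher as deposited, against 9.54% of all genes, and none after cyclic loess, against 4.38%. What these values share with the neutrophil genes was not tested.

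None of the 6 lymphocyte markers was called in any scaling. Cd3e, a chain of the T cell receptor complex, read 7.13, 7.15 and 7.28 in knockout livers, against 7.03, 7.10, 6.88 and 6.86 in rescued livers. The groups did not overlap as deposited (0.22, adjusted p = 0.0860), but they did after cyclic loess (0.15, adjusted p = 0.288). Cd8a read 6.38, 6.32 and 6.52 in knockout livers, against 6.21 in all 4 rescued livers, where the deposited values were equal to the last digit. Cd4 had the same value on 4 of the 7 arrays, 5.97. Equal values on at least a pair of arrays occurred for 24.7% of all genes, and equality of all 4 rescued values for 0.181%, so the spread of Cd8a is understated by its SD of 0. The T cell co-receptor gene Cd8a had a difference of 0.20 (adjusted p = 0.0673) that was 0.06 under cyclic loess, and Cd4 differed by -0.02 and -0.17. As deposited, Cd4 overlapped between the groups and ran only from 5.93 to 5.97 over the 7 arrays. Its groups stood apart only once cyclic loess had shifted these values, at 5.82 to 5.90 in knockout and 5.97 to 6.09 in rescued livers. The B cell genes Cd79a and Ms4a1 differed by -0.09 and 0.17, and the cytotoxic granule gene Nkg7 by 0.12.

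**Figure D5:**
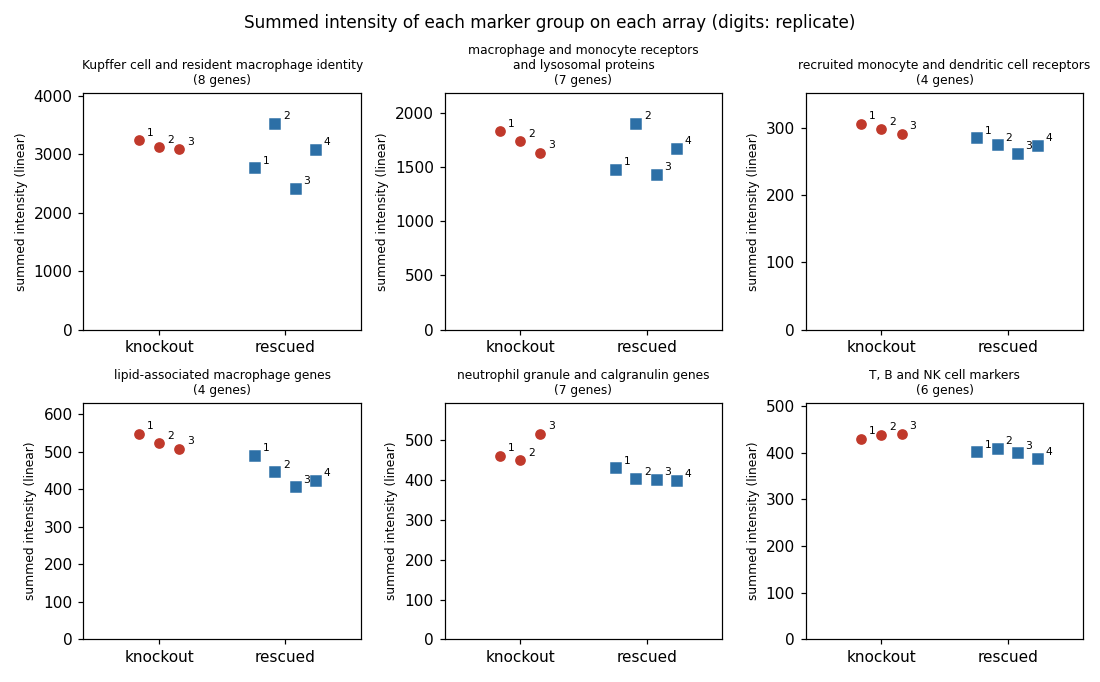
Linear intensity summed over the measured genes of each role group (vertical, from 0) on each knockout array (circles, left) and rescued array (squares, right), as deposited; digits give the replicate. The rescued sums of the Kupffer identity group, 2413 to 3522, enclose the knockout sums of 3086 to 3241, while the dimmer groups lie somewhat higher on the knockout arrays.

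The 12 dim members were also summed on their own, whichever role group they belonged to. Summed over the 12 members not above the receptor percentile, intensity was 563 to 590 in knockout and 513 to 543 in rescued livers. Summed over all 7003 such genes it was 287644 to 305588 in knockout and 257094 to 276916 in rescued livers. After cyclic loess the 12 members gave 531 to 571 in knockout and 545 to 557 in rescued livers, and the knockout and rescued sums overlapped. The lipid-associated sums given above did not overlap in either scaling.

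Other markers of the same cells were read beside all genes, of which 9.54% were called higher and 4.85% lower as deposited. After cyclic loess these shares were 4.38% and 5.36%, and in all 4 scalings 2.61% and 4.06%. Of 17 further Kupffer cell genes, 1 was called higher and 1 lower in every scaling, the fatty acid transporter gene Cd36 (0.85, adjusted p = 0.0103) and the complement gene C6 (-0.41, adjusted p = 0.0147), both also expressed by hepatocytes. Of 21 pan-leukocyte and myeloid core genes, none was called higher and 1 lower, the actin-bundling protein gene Lcp1, which fell by 0.30 on the log2 scale (adjusted p = 0.0221). Lcp1 was called lower in all 4 scalings, but not as deposited when knockout replicate 1 or either of rescued replicates 2 and 3 was left out. After cyclic loess it kept its call only without rescued replicate 4. The leukocyte phosphatase gene Ptprc, which encodes CD45, and the adaptor gene Tyrobp differed by 0.03 and 0.22 without a call, and were named after their values were seen. Of 11 measured C1q and MHC class II genes, 1 was called higher as deposited, the class II transactivator gene Ciita (0.35, adjusted p = 0.0334), and none after cyclic loess. The class II genes H2-Ab1, Cd74, H2-Aa and H2-Eb1, named after their values were seen, differed by -0.40, -0.32, -0.24 and -0.08 without a call. Of the 11 differences as deposited, 6 lay above 0. Nr1h3, the liver X receptor alpha gene that mouse Kupffer cells need for their identity and that hepatocytes also express, fell by 0.59 on the log2 scale (adjusted p = 0.00163).

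Wider lists of lymphocyte, cytokine and neutrophil genes held calls as deposited and none after cyclic loess. Over all genes, 9.54% were higher and 4.85% lower as deposited, and 4.38% and 5.36% after cyclic loess. Of 22 further T, B and NK cell genes, 3 were higher as deposited and none after it, with the T cell receptor zeta chain gene Cd247 ahead (0.38, adjusted p = 0.0250). Of 16 cytokine and inflammatory genes 3 were higher as deposited and none after it, with the interleukin-12 subunit gene Il12b ahead (0.37, adjusted p = 0.0287). Of 16 neutrophil and monocyte genes the called gene with the smallest p was Cd177 (0.30, adjusted p = 0.0242). None of the 10 dendritic cell genes was called in either scaling, and Batf3, a transcription factor gene of that lineage, had the smallest p (0.20, adjusted p = 0.0841).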

How the data were processed

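Liver RNA of 7 mice was hybridised to Affymetrix Mouse Gene 1.0 ST arrays, 3 knockout and 4 rescued. The deposited values are linear intensities per probe set, summarised with RMA in Partek per the submitters' processing notes, which give no versions. The labels call the replicates biological, and p-values measure only the spread between these arrays. Of 27541 probe sets, 21631 carried 1 symbol, 1317 several and 4593 none in the platform annotation; 21544 matched RefSeq genes. The brightest single-symbol probe set stood for a gene, which left 19933 genes. The log2 values were fitted with limma 3.58.1 in R 4.3.3 (lmFit, eBayes, two-sided, Benjamini-Hochberg over all genes, threshold 0.05). No label or header says how the deposited values were scaled between arrays; they hold a level-dependent offset between the groups, so quantile, median and cyclic loess scaling were alternatives, with other filters, variance models, thresholds, a replicate block and each array left out. The fit was tested on simulated data. Sets of 500 neighbours in level describe genes of like brightness. The number of arrays limits the precision.

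All measured members are named. From each further list, up to 3 genes called with 1 sign as deposited and after cyclic loess, with the largest differences, are named, or the gene with the smallest p where none was. Hdac3 and Nr1h3 are named too. Members and lists were chosen with earlier results of these data known. Named for their smallest p, in lists with no gene called in both scalings, are Ciita, Il12b, Cd177, Cd247, Batf3 and Sox9.

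For the remaining lists, the shares of all genes were 9.54% higher and 4.85% lower as deposited. After cyclic loess they were 4.38% and 5.36%. Of 16 stellate cell genes 1 was higher in either scaling (Lrat, 0.32, adjusted p = 0.0398), of 8 cholangiocyte genes none as deposited and 1 after cyclic loess (Sox9, 0.31, adjusted p = 0.0565 as deposited), and of 13 hepatocyte genes 1 was lower (Asgr1, -0.43, adjusted p = 0.0217). Of 9 erythroid and platelet genes 1 was higher (Tfrc, 0.36, adjusted p = 0.0278) and 1 lower (Alas2, -1.15, adjusted p = 0.000190).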

Additional observations from a re-analysis of the deposited data

Results flagged for a closer look

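In 3 of 58 genes tested for it, 1 rescued array lay far from the other rescued arrays, where chance alone gives about 1 in 20. Mrc1 read 8.88 on rescued replicate 2, against 8.65 to 8.69 on the others, on the side away from the knockout values. Cd36 read 9.09 on rescued replicate 1, against 8.70 to 8.76 on the others, on the side of the knockout values. Cd4 read 5.97 on rescued replicate 3 and 5.97 on the others, which were equal to each other, so the gap lies in the third decimal.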

How the results depend on the processing

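Over all genes, 2867 were called as deposited. The count was 136 with limma's treat against a fold of 1.2, 509 at an adjusted p under 0.01, 5528 under 0.1 and 1330 in all 4 scalings, a count added after seeing the data. Leaving out an array gave 897 (without knockout replicate 1) to 3263 (without rescued replicate 1). Among genes above the median level the count was 2004. Of the 36 members 6 were called as deposited, 2 after quantile, median or cyclic loess scaling or among genes above the median level, 1 at an adjusted p under 0.01, 1 in all 4 scalings, and 0 with treat, although limma without a fold minimum gave 12 members (33.3%) and 7115 of all genes (35.7%) p-values below 0.05 before adjustment. Leaving out an array gave 1 (without knockout replicate 1) to 7 (without rescued replicate 1) as deposited and, added after seeing the data, 0 (without knockout replicate 1) to 4 (without rescued replicate 2) after cyclic loess. No count over all genes is given here for the cyclic loess fits that left out an array. With the replicate block 3 members (Mrc1, Mmp12, Camp) and 1938 of all genes were called. The deviations of same-numbered arrays correlated at 0.15, 0.0028 and 0.0053, and the numbers are not taken as pairs.

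Signs turned, none of them for a called gene, under quantile and cyclic loess scaling for Marco (-0.017 and -0.026), Fcgr3 (-0.0030 and -0.0031, and -0.019 after median centring), Itgam (-0.046 and -0.050), Itgax (-0.040 and -0.046), Mpo (-0.026 and -0.035), Ltf (-0.022 and -0.026) and Nkg7 (-0.013 and -0.020). Leaving out an array gave -0.019 to 0.18 for Timd4 and -0.21 to 0.0017 for Cd79a. The cause was not tested. For the 12 members within the range of the receptor genes, signal over background limits what can be read.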
